A study of Danio rerio with 45 samples.

Results

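Rad21 MO embryos were compared with CTCF MO embryos of the zebrafish (Danio rerio) at 5.3 hours post fertilisation (hpf), around the onset of gastrulation. The members are 6 of the 45 RNA-seq libraries in the series, chosen by their labels: 3 libraries of each morpholino group at this stage. Morpholinos are synthetic antisense molecules that keep a chosen RNA from being translated or spliced. Rad21 MO embryos had received a morpholino against rad21, and CTCF MO embryos a morpholino against ctcf. The 3 WT libraries of 5.3 hpf are given beside them. All groups are of strain AB/PS, and each library held total RNA of 100 pooled whole embryos that had been matched in stage by eye. Separate clutches are not stated for the pools, nor is any injection of the WT embryos. The p-values therefore reflect only pool-to-pool spread, which may be technical.

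Cohesin is a ring-shaped complex that holds sister chromatids together and folds chromatin into loops, and Rad21 is the subunit that closes the ring. CTCF binds DNA at specific sites and halts cohesin there, which sets many loop ends. In the early zebrafish embryo, RNA stored in the egg is cleared while the embryo's own genome is switched on, and this handover is still in progress at the stage studied. A contrast of the morpholino groups with each other asks where their transcripts differ. The Rad21 morpholino targets a ring subunit, and the CTCF morpholino targets the protein that positions the ring. The data hold no protein levels, so the extent of depletion is not known here.

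Levels are in FPKM as the authors deposited them, that is, fragments scaled by transcript length in kilobases and by 1e+06 mapped fragments. Differences are of log2(FPKM + 1), Rad21 MO minus CTCF MO, so a positive value is higher in Rad21 MO embryos. A gene was called at an adjusted p under 0.05 by limma, fitted over all 15214 genes that reached 1 FPKM in at least 3 of the 9 libraries of the stage. FPKM sums per library were 1037052 to 1265207 in Rad21 MO, 1175676 to 1236928 in CTCF MO and 1386743 to 1539678 in WT. Between 14386 and 14511 genes reached 1 FPKM in Rad21 MO libraries, 14407 to 14529 in CTCF MO libraries and 14149 to 14320 in WT libraries. Replicates correlated across genes with r of 0.962 to 0.969 in Rad21 MO, 0.951 to 0.961 in CTCF MO and 0.957 to 0.965 in WT. Rad21 MO libraries correlated with CTCF MO libraries at 0.941 to 0.959.

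Markers of the embryo at this stage were present in every group. The enveloping layer keratin krt4 and the yolk syncytial layer gene apoeb missed the test between the morpholino groups (adjusted p = 0.832 and 0.936). Of 38 genes of tissues that form later, 2 passed the filter on low values and 9 were listed at 0 in all 9 libraries. Their summed level was 7.95 to 10.3 FPKM in Rad21 MO, 8.82 to 13.9 in CTCF MO and 8.78 to 13.1 in WT libraries. Of 16 genes of ovarian somatic cells, 4 passed the filter, and their sums were 153 to 174 FPKM in Rad21 MO, 162 to 178 in CTCF MO and 140 to 176 in WT. The part of other cells in the results was not tested. In whole embryos, fewer cells of a type and less RNA per cell cannot be told apart.

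The targeted transcripts were read before the rest. The rad21a RNA (Zv9 chromosome 16, 51486520 to 51734308), which encodes the ring-closing subunit, was at similar levels in the morpholino groups. It stood at 152, 145 and 165 FPKM in Rad21 MO libraries and at 159, 157 and 161 in CTCF MO libraries, and both groups lay below WT at 203 ± 10.4 (SD, n = 3). Levels beside WT are given here and below without rescaling, although FPKM sums were higher in WT than in either morpholino group. How far the gap to WT rests on this was not tested. The difference between the morpholino groups was -0.045 (SE 0.0838, adjusted p = 0.804). The second copy, rad21b, was listed at 0 to 0.119 FPKM in the morpholino libraries and was not tested.

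The ctcf RNA (chromosome 18, 22066702 to 22074092) was higher in Rad21 MO embryos. It stood at 327, 334 and 326 FPKM there, at 240, 233 and 238 in CTCF MO libraries and at 496 ± 22.0 in WT (SD, n = 3). The groups did not overlap, and WT lay above both (log2 difference 0.47, SE 0.0771, adjusted p = 0.0186). The adjusted p reached 0.0761 without single libraries, which ended the call without each of the Rad21 MO libraries and without CTCF MO replicate 1. A morpholino need not lower the RNA of its target, so these levels do not measure protein. Of 17 tested genes for cohesin subunits, its loaders and regulators and ctcf itself, ctcf was the 1 called (5.88%, near the 4.5% of all tested genes).

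Between Rad21 MO and CTCF MO embryos, 684 genes were called, 4.5% of those tested. Of these, 418 were higher in Rad21 MO embryos (2.75% of tested genes) and 266 lower (1.75%), and 99 and 74 of them differed at least 2-fold. At an unadjusted p under 0.05 there were 3236 genes. In all 684 the libraries of the groups did not overlap, which held for 28.6% of all tested genes. Against WT, whose libraries both comparisons share, 3362 genes were called in Rad21 MO embryos (22.1%; 12.2% higher and 9.9% lower) and 1361 in CTCF MO embryos (8.95%; 5.07% higher and 3.87% lower). When each library was rescaled to a sum of 1e+06, the median over all genes moved from -0.0152 to 0.0643 and the calls were 386 higher and 102 lower. Without a single Rad21 MO library 62 to 68 genes were called, and 191, 114 and 314 without CTCF MO replicates 0, 1 and 2.

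Of the named genes, pgp, vgll4l, tbp, gdf9, UBE2U and slc7a3a were called in every alternative run. Every other named call ended without at least 1 single library, and no called named gene changed its sign in any alternative.

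Genes with the largest positive differences encode proteins of varied function. The largest was arpc5lb (chromosome 5, 33698495 to 33712252), a subunit of the Arp2/3 complex that branches actin filaments. It stood at 12.5, 11.6 and 8.84 FPKM in Rad21 MO libraries, at 1.28, 2.62 and 3.77 in CTCF MO libraries and at 2.16 ± 0.164 in WT (SD, n = 3). Rad21 MO embryos thus stood apart from both other groups (log2 difference 1.80, SE 0.265, adjusted p = 0.0138), although the call ended without Rad21 MO replicates 0 and 1 (highest adjusted p = 0.0659). The next largest was il13ra2, an interleukin 13 receptor, at 30.6, 40.2 and 38.8 FPKM in Rad21 MO libraries, against 5.66, 11.3 and 17.2 in CTCF MO libraries (1.705, SE 0.306, adjusted p = 0.0233).

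The phosphatase gene pgp (chromosome 12, 19591517 to 19594799), whose product removes phosphoglycolate, showed the same order of groups. It stood at 18.2, 21.1 and 15.2 FPKM in Rad21 MO libraries, at 4.21, 5.74 and 6.58 in CTCF MO libraries and at 2.745 ± 0.137 in WT (SD, n = 3). The mean was 3.3 times that of CTCF MO embryos (log2 difference 1.57, SE 0.185, adjusted p = 0.00745), and the difference was 1.14 to 1.72 over all alternatives. Another of these genes had WT between the groups: vgll4l (chromosome 8, 31947305 to 31955579), of the vestigial-like family of transcription cofactors. It stood at 219, 193 and 225 FPKM in Rad21 MO libraries, at 63.4, 87.3 and 73.8 in CTCF MO libraries and at 129 ± 10.3 in WT (SD, n = 3). The separation exceeded the spread within every group (1.501, SE 0.127, adjusted p = 0.00405), and against WT it was higher in Rad21 MO (0.71, adjusted p = 0.00506) and lower in CTCF MO embryos (-0.79, adjusted p = 0.00787).

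The rest of the 12 largest positive differences ran from 1.47 to 1.60 in log2. They were THEM4, a thioesterase, dazap1, an RNA-binding protein, rnf181, a ubiquitin ligase, and trim35-29, of the tripartite-motif family. There were also cln6a, a membrane protein of the endoplasmic reticulum, KANK1, a scaffold at the actin cortex, hprt1l, related to a purine salvage enzyme, and fadd, an adaptor of death receptors. Adjusted p for these was 0.0149 to 0.0362. Each of these calls ended without at least 3 of the single libraries, with a highest adjusted p of 0.0676 for cln6a to 0.12 for dazap1.

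**Figure D1:**
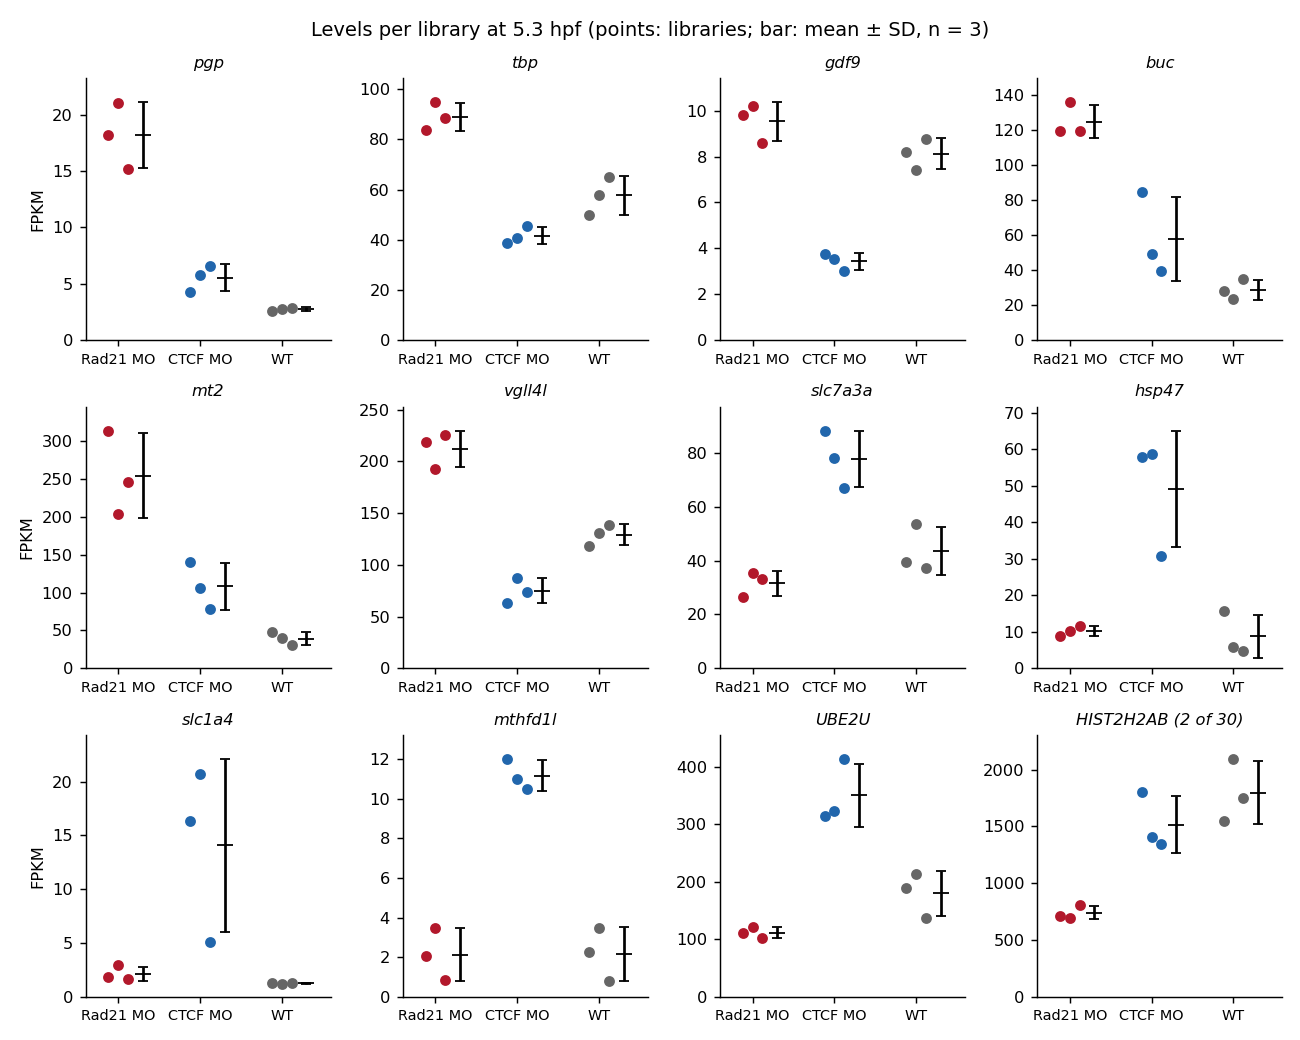
Level in FPKM (vertical axes, each from 0) of 12 named genes in the 3 libraries of Rad21 MO, CTCF MO and WT embryos at 5.3 hpf. Points are libraries, and bars beside them are the mean ± SD (n = 3). Rad21 MO libraries lie above CTCF MO libraries for pgp, tbp, gdf9, buc, mt2 and vgll4l and below them for the other 6, while WT lies nearest to CTCF MO for some genes and nearest to Rad21 MO for others.

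Genes with the largest negative differences were higher in CTCF MO embryos and encode proteins of varied function. The largest was igfbp1a (chromosome 20, 7029527 to 7033442), which binds insulin-like growth factors. It stood at 0.914, 2.52 and 1.32 FPKM in Rad21 MO libraries, at 31.2, 20.2 and 3.63 in CTCF MO libraries and at 0.462 ± 0.236 in WT (SD, n = 3). CTCF MO replicate 2 lay close to the Rad21 MO range (log2 difference -2.55, SE 0.604, adjusted p = 0.0483). The call ended in 10 alternatives, among them the removal of any morpholino library but that replicate, with a highest adjusted p of 0.149.

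The collagen chaperone hsp47 (chromosome 15, 28732297 to 28736597) differed almost as much. It stood at 8.82, 10.2 and 11.7 FPKM in Rad21 MO libraries, at 58.0, 58.8 and 30.8 in CTCF MO libraries and at 8.74 ± 6 in WT (SD, n = 3). CTCF MO embryos stood above both other groups (-2.11, SE 0.385, adjusted p = 0.0242, highest 0.0922 without single libraries), and Rad21 MO embryos missed the test against WT (0.36, adjusted p = 0.547). The neutral amino acid transporter slc1a4 had the same order, with 1.83, 2.91 and 1.67 FPKM in Rad21 MO libraries, 16.4, 20.7 and 5.13 in CTCF MO libraries and 1.25 ± 0.0736 in WT (-2.10, SE 0.41, adjusted p = 0.0284, highest 0.104). In both genes CTCF MO replicate 2 was the lowest of its group.

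The mitochondrial folate enzyme mthfd1l (chromosome 20, 26507805 to 26561457) was even among CTCF MO libraries. It stood at 2.08, 3.49 and 0.83 FPKM in Rad21 MO libraries, at 12, 11.01 and 10.5 in CTCF MO libraries and at 2.17 ± 1.35 in WT (SD, n = 3; -2.05, SE 0.383, adjusted p = 0.0253, highest 0.0885 without single libraries). The most abundant of these genes was UBE2U (chromosome 6, 55261893 to 55289106), named for a ubiquitin-conjugating enzyme. It stood at 111, 122 and 102 FPKM in Rad21 MO libraries, at 315, 323 and 414 in CTCF MO libraries and at 180 ± 39.0 in WT (SD, n = 3). The mean of CTCF MO embryos was 3.14 times that of Rad21 MO embryos (-1.63, SE 0.17, adjusted p = 0.0059), with WT between them.

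The remaining 7 of the 12 ran from -1.46 to -2.12. They were tuba1l2, an alpha-tubulin, APOA1 (1 of 2), an apolipoprotein, gas2l1, which links actin and microtubules, angptl4, a secreted inhibitor of lipoprotein lipase, and irf7, a transcription factor of the interferon response. The tight junction proteins cldna and cldnc completed them. In cldna WT lay between the groups, at 3.89 ± 0.756 FPKM (SD, n = 3), with 2.04, 1.34 and 1.196 in Rad21 MO libraries and 7.91, 7.60 and 4.23 in CTCF MO libraries. Adjusted p for the 7 was 0.0126 to 0.0417 and reached 0.0622 for gas2l1 to 0.127 for APOA1 (1 of 2) over the alternatives.

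Transcripts inherited from the egg were called higher in Rad21 MO embryos more often than lower. The maternal class holds genes at least 4-fold lower in WT at 10 hpf than at 2.5 hpf, defined in WT libraries outside this contrast. Of its 1336 tested genes, 121 were higher in Rad21 MO embryos and 8 lower. These are 9.06% and 0.599% of the class, against 2.75% and 1.75% of all tested genes. The median difference of the class was 0.252, against -0.0152 over all genes, and 997 of its genes lay above 0. By the class median both morpholino groups stood above WT, Rad21 MO the more so. For Rad21 MO the median against WT was 0.551, with 572 genes called higher and 34 lower. For CTCF MO it was 0.286, with 218 genes called higher and 26 lower. The class supplied 28.9% of all genes higher in Rad21 MO embryos and 3.01% of those lower, while it is 8.78% of the tested genes. Without single libraries the higher calls of the class were 10 to 55, against 36 to 184 over all tested genes. Over all alternatives the median of the class was 0.178 to 0.335.

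Among maternal genes, tbp (chromosome 13, 24608058 to 24619893) encodes the TATA-binding protein that starts transcription at many promoters. It stood at 83.8, 94.8 and 88.5 FPKM in Rad21 MO libraries, at 38.8, 40.7 and 45.3 in CTCF MO libraries and at 57.6 ± 7.61 in WT (SD, n = 3). WT lay between the groups (log2 difference 1.08, SE 0.115, adjusted p = 0.00648), and it was higher than WT in Rad21 MO (0.63, adjusted p = 0.00586) and lower in CTCF MO embryos (-0.46, adjusted p = 0.0405).

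Of 27 tested oocyte genes, 4 were higher in Rad21 MO embryos (14.8%, against 2.75% of all tested genes; 1 to 5 genes over the alternatives) and none lower, with a median of 0.173 that ranged from 0.0843 to 0.252 over the alternatives. The growth factor gene gdf9 (chromosome 14, 23460194 to 23467148), made by oocytes, stood at 9.80, 10.2 and 8.60 FPKM in Rad21 MO libraries, at 3.73, 3.53 and 3.02 in CTCF MO libraries and at 8.12 ± 0.679 in WT (SD, n = 3). Here Rad21 MO was near WT and CTCF MO below both (1.25, SE 0.148, adjusted p = 0.00745). The order differed for buc (chromosome 2, 28022980 to 28027100), which organises the germ plasm: 119, 136 and 119 FPKM in Rad21 MO libraries, 84.6, 48.9 and 39.4 in CTCF MO libraries and 28.6 ± 5.71 in WT (1.17, SE 0.249, adjusted p = 0.0364). Both morpholino groups stood above WT, Rad21 MO the more so, and the adjusted p reached 0.117 without single libraries.

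The metallothionein mt2 (chromosome 18, 17193794 to 17195147), which binds metal ions and is on the oocyte list as an RNA stored in the egg, had the same order of groups as buc. It stood at 314, 203 and 246 FPKM in Rad21 MO libraries, at 141, 105 and 77.8 in CTCF MO libraries and at 39.1 ± 8.38 in WT (SD, n = 3; 1.25, SE 0.24, adjusted p = 0.0277, highest 0.0974). The fourth was pabpn1l, a poly(A)-binding protein of the egg (0.63, SE 0.147, adjusted p = 0.0463, highest 0.151). Other members of the list did not pass the test, and 11 of the 27 lay below 0 (40.7%, against 51.9% of all tested genes). The deadenylation adaptor btg4 stood at 96.2, 185 and 96.1 FPKM in Rad21 MO libraries, at 61.9, 53.6 and 60.3 in CTCF MO libraries and at 14.4 in WT on average (1.02, adjusted p = 0.117).

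Of 18 tested germline genes, 2 were higher in Rad21 MO embryos (11.1%, against 2.75% of all tested genes; 0 to 2 genes over the alternatives) and none lower. The piRNA pathway gene asz1 stood at 55.4, 52.8 and 51.9 FPKM in Rad21 MO libraries, at 29.4, 34.9 and 24.95 in CTCF MO libraries and at 21.4 ± 0.873 in WT (SD, n = 3; 0.84, SE 0.123, adjusted p = 0.0138, highest 0.0671). The Tudor-domain gene tdrd6 stood at 29.1, 38.8 and 35.1 FPKM in Rad21 MO libraries, against 23.2, 15.3 and 15.11 in CTCF MO libraries (0.92, SE 0.197, adjusted p = 0.0366, highest 0.123). The germ cell genes did not move together: the RNA-binding gene dazl had 111, 81.2 and 96.1 FPKM in Rad21 MO, 144, 102 and 92.1 in CTCF MO libraries and 24.95 in WT on average (-0.21, adjusted p = 0.519), and vasa, an RNA helicase, had a difference of -0.09 (adjusted p = 0.71). The list's median was -0.0196 and changed sign under rescaling.

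Of 34 tested genes of mRNA deadenylation and decay, 4 were lower in Rad21 MO embryos (11.8%, against 1.75% of all tested genes) and 1 higher (2.94%, against 2.75%), with a median of -0.0438. After rescaling to 1e+06, 1 of the list was lower, and 102 of all tested genes were. The decapping cofactor pnrc2 stood at 569, 491 and 559 FPKM in Rad21 MO libraries, at 776, 752 and 825 in CTCF MO libraries and at 1018 ± 49.1 in WT (SD, n = 3; -0.54, SE 0.0988, adjusted p = 0.0245). WT was the highest group and Rad21 MO the lowest. The deadenylase subunit cnot3a (-0.70, adjusted p = 0.0384) and the nonsense-mediated decay helicase upf1 (-0.44, adjusted p = 0.0411) had the same direction. The fourth was zfp36l1b, which binds AU-rich elements, at 0.484, 0.589 and 0.514 FPKM in Rad21 MO libraries, against 2.18, 2.33 and 2.78 in CTCF MO libraries (-1.16, adjusted p = 0.0203). It lay below the level the rule for named genes asks for and was chosen after its values were seen. The decapping enhancer edc3 was higher (0.51, adjusted p = 0.0415). Without single libraries at most 1 gene of the list was called.

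A class of genes that rise in WT by 10 hpf showed the opposite balance, which the early zygotic targets given below did not share. The zygotic class holds genes at least 4-fold higher in WT at 10 hpf than at 2.5 hpf. Of its 2108 tested genes, 10 were higher in Rad21 MO embryos and 75 lower, and 510 lay above 0. The median was -0.205, against -0.0152 over all genes, and it was -0.247 to -0.119 over all alternatives. Set against WT, the Rad21 MO group had a class median of -0.279, with 22 genes called higher and 321 lower. For the CTCF MO group the class median against WT was -0.069, with 29 genes called higher and 92 lower. The class supplied 28.2% of all genes lower in Rad21 MO embryos and 2.39% of those higher, while it is 13.9% of the tested genes. Its lower calls were 37 when libraries were rescaled to 1e+06 and 4 to 29 without single libraries. Over all tested genes the lower calls were 102 and 24 to 130 in these settings. Genes of neither class had a median of -0.00494.

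**Figure D2:**
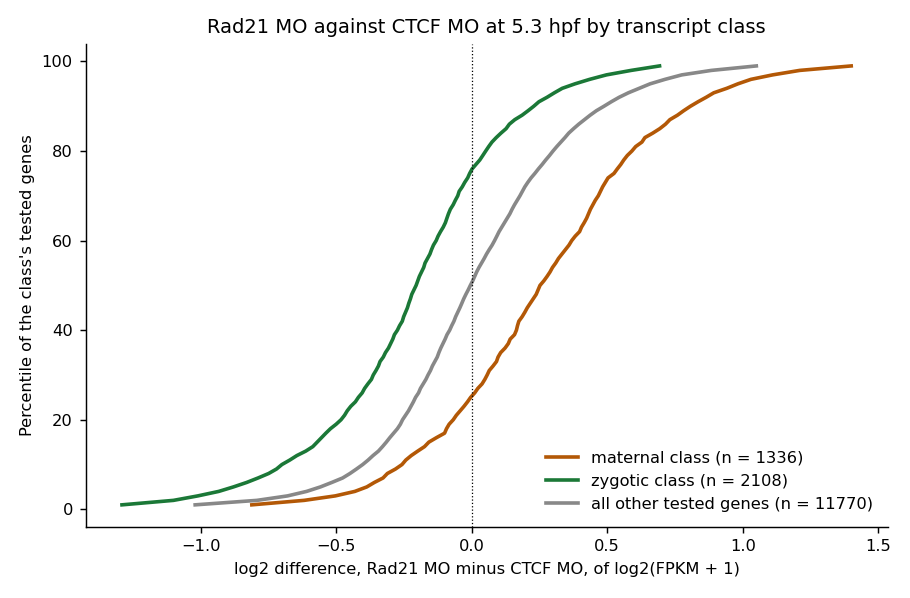
Log2 difference Rad21 MO minus CTCF MO at 5.3 hpf (horizontal axis) at each percentile (vertical axis) of the tested genes of the maternal class, the zygotic class and all other genes. The maternal curve lies to the right with a median of 0.252, and the zygotic curve to the left with a median of -0.205.

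**Figure D3:**
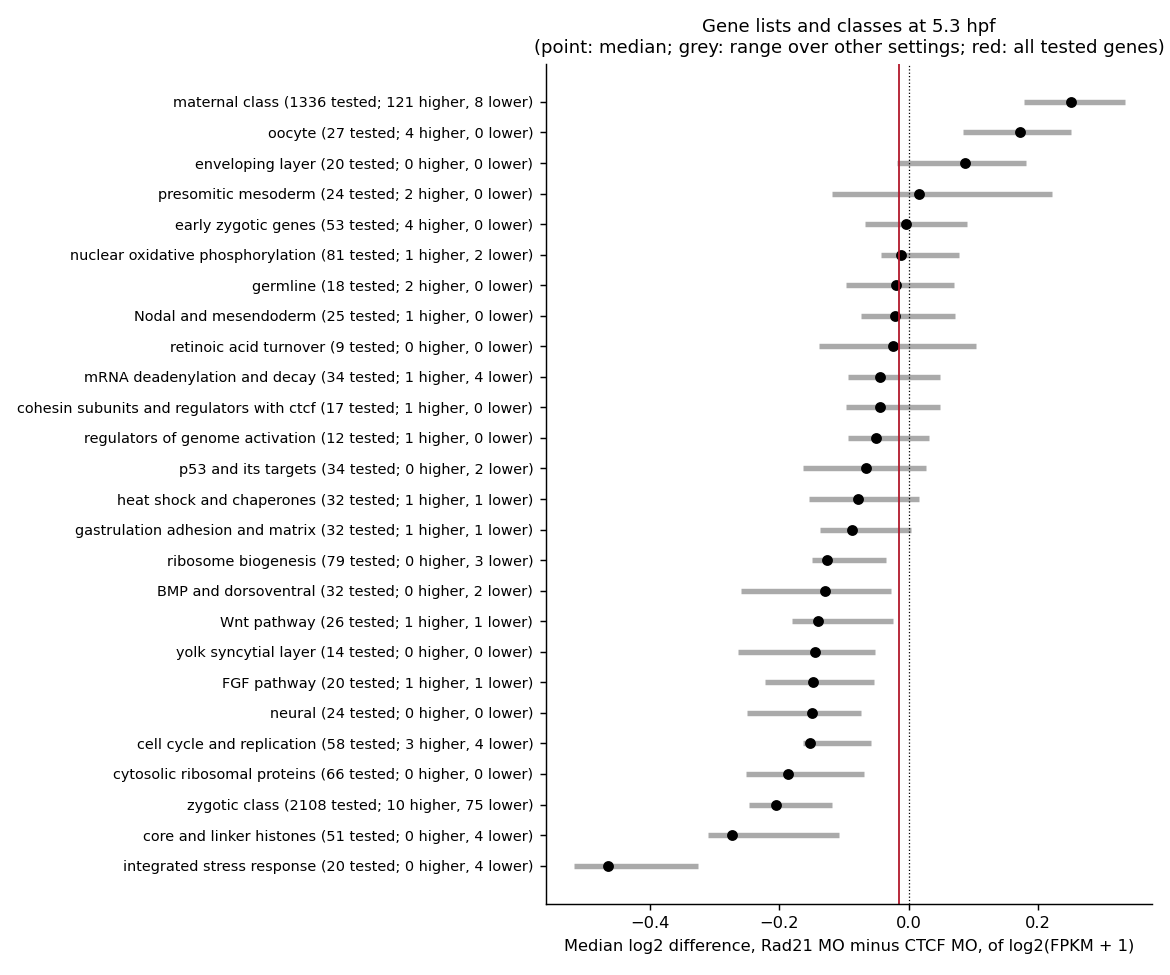
Median log2 difference Rad21 MO minus CTCF MO (horizontal axis) of each class and gene list with at least 9 tested genes (rows). Points are the medians, grey bars their range over the other settings, and the red line the median of all tested genes. The integrated stress response genes lie lowest at -0.465 and the maternal class highest at 0.252.

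Among regulators that switch the genome on, 9 of 12 tested lay below 0 (75%, against 51.9% of all tested genes). Their median was -0.0499, and 0.0318 after rescaling to 1e+06. The 1 called was tbp, which was higher (8.33% of the list, against 2.75% of all tested genes). The level of pou5f1 averaged 509 FPKM in Rad21 MO, 515 in CTCF MO and 688 in WT embryos, and the morpholino groups differed by -0.017 (adjusted p = 0.947). For nanog the difference was -0.0025 (adjusted p = 0.994). For sox19b, a maternal SoxB1 factor, libraries did not overlap, at 171, 186 and 173 FPKM in Rad21 MO libraries, against 147, 132 and 135 in CTCF MO libraries, both above WT at 80.1 ± 10.7, yet the difference missed the threshold (0.36, SE 0.106, adjusted p = 0.0923). The zygotic zinc finger gene blf differed by 0.12 (adjusted p = 0.622).

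The 53 tested genes that are known as early zygotic targets held 4 higher in Rad21 MO embryos (7.55%, against 2.75% of all tested genes; 1 to 7 genes over the alternatives) and none lower, with a median of -0.0035. The first was vgll4l. The second, wnt11, a ligand that guides cell movements, stood at 227, 237 and 240 FPKM in Rad21 MO libraries, at 137, 143 and 155 in CTCF MO libraries and at 183 ± 16.5 in WT (SD, n = 3; 0.69, SE 0.0936, adjusted p = 0.00989). WT lay between the groups, and the call ended without Rad21 MO replicate 2 and with all 45 libraries (highest adjusted p 0.0666). The T-box factor tbx16, needed for trunk mesoderm, stood at 235, 251 and 249 FPKM in Rad21 MO libraries, at 155, 176 and 201 in CTCF MO libraries and at 287 ± 8.29 in WT (0.47, SE 0.103, adjusted p = 0.0392, highest 0.153). The ligand fgf8a, the fourth, had a difference of 0.55 (SE 0.13, adjusted p = 0.0475) and lost its call in 10 alternatives.

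Signalling genes that pattern the axes had 1 or 2 calls a list. Of 32 BMP and dorsoventral genes, 2 were lower in Rad21 MO embryos (6.25%, against 1.75% of all tested genes; 0 to 5 genes over the alternatives) and none higher: the homeobox gene msxb (-1.06, SE 0.184, adjusted p = 0.0215) and admp, a BMP ligand of the dorsal side (-0.66, SE 0.154, adjusted p = 0.0465). The level of msxb was 3.82, 4.22 and 4.39 FPKM in Rad21 MO libraries, against 10.3, 9.77 and 9.08 in CTCF MO libraries. Of the 32 genes 24 lay below 0 (75%, against 51.9% of all tested genes), and their median was -0.129. The BMP antagonist chd was at 57.5, 75.5 and 50.1 FPKM in Rad21 MO libraries, against 115, 87.2 and 85.7 in CTCF MO libraries, without overlap but short of the threshold (-0.65, adjusted p = 0.0587). Libraries did not overlap in 28.6% of all tested genes. Of 20 FGF genes, fgf8a was higher and the antagonist spred1 lower (-0.77, SE 0.177, adjusted p = 0.0458). This is 5% in each direction, against 2.75% of all tested genes higher and 1.75% lower. Of 26 Wnt genes (3.85% in each direction, against the same 2.75% and 1.75%), wnt11 was higher and the coreceptor lrp6 lower (-0.66, SE 0.15, adjusted p = 0.0433). Apart from wnt11, each of these calls ended in at least 5 alternatives.

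Of 25 genes of Nodal signalling and mesendoderm, tbx16 was the 1 called, higher in Rad21 MO embryos (4%, against 2.75% of all tested genes). The list's median was -0.0217, and 13 of the 25 lay below 0 (52%, against 51.9% of all tested genes). The Nodal ligand ndr1 was at 28.6, 25.4 and 27.0 FPKM in Rad21 MO libraries, against 19.2, 16.9 and 14.3 in CTCF MO libraries (0.66, adjusted p = 0.0607), and its inhibitor lft2 at 87.4, 97.3 and 75.7 FPKM in Rad21 MO libraries, with 66.2, 53.3 and 39.3 in CTCF MO libraries (0.73, adjusted p = 0.055). Both pairs of groups stood apart without a call, and libraries of the groups did not overlap in 28.6% of all tested genes. The mesoderm factor ntla had the other direction, at 180, 205 and 195 FPKM in Rad21 MO libraries, against 264, 253 and 303 in CTCF MO libraries (-0.50, adjusted p = 0.099). By limma no gene was called among 24 neural, 20 enveloping layer, 14 yolk syncytial layer and 9 retinoic acid genes, where 2.75% and 1.75% of all tested genes were called higher and lower. At an unadjusted p under 0.05 these lists held 6, 7, 3 and 2 genes, against 3236 of all 15214 tested genes. Below 0 lay 66.7%, 40%, 85.7% and 66.7% of them, against 51.9% of all tested genes. The median of the yolk syncytial layer genes was -0.145 (-0.264 to -0.0517 over the alternatives). Of 32 genes for adhesion and movement 1 was called in each direction (3.12% each), cldnc lower (-1.46, adjusted p = 0.0205) and the chemokine receptor cxcr4b higher. The level of cxcr4b was 352, 387 and 339 FPKM in Rad21 MO libraries, against 229, 211 and 255 in CTCF MO libraries (0.63, SE 0.123, adjusted p = 0.0283, highest 0.0977). None of 44 hox genes and 35 clustered protocadherins passed the filter on low values.

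The list with the lowest median was the integrated stress response, the program by which the factor Atf4 raises amino acid transport and synthesis. Of its 20 tested genes 4 were lower in Rad21 MO embryos (20%, against 1.75% of all tested genes) and none higher, and 16 lay below 0 (80%, against 51.9%). The lower calls were 1 after rescaling to 1e+06, 2 under median ratio scaling or a pseudocount of 0.1, and 7 with all 45 libraries. Over all tested genes the lower calls moved as well, from 266 to 102 after rescaling, 230 under median ratio scaling and 238 with that pseudocount. With all 45 libraries they were 749 of 18943. The median was -0.465 and ranged from -0.519 to -0.326 over all alternatives. Set against WT, the Rad21 MO group had a list median of 0.00272, with 4 genes called higher and 1 lower. For the CTCF MO group the list median against WT was 0.429, with 7 genes called higher and 0 lower. Over all tested genes the medians against WT were -0.0307 for Rad21 MO and 0.00224 for CTCF MO. The cationic amino acid transporter slc7a3a (chromosome 21, 29246062 to 29281472) stood at 26.3, 35.2 and 33.0 FPKM in Rad21 MO libraries, at 88.0, 77.9 and 67.0 in CTCF MO libraries and at 43.5 ± 8.83 in WT (SD, n = 3; -1.28, SE 0.168, adjusted p = 0.00884). CTCF MO was above WT (0.83, adjusted p = 0.0188), and Rad21 MO was below it without a call (-0.45, adjusted p = 0.0884).

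The stress-induced gene sesn2 stood at 14.6, 21.1 and 17.7 FPKM in Rad21 MO libraries, at 37.5, 38.6 and 26.6 in CTCF MO libraries and at 6.755 ± 1.46 in WT (SD, n = 3; -0.90, SE 0.2, adjusted p = 0.0416, highest 0.136). Both morpholino groups were above WT, CTCF MO the more so. Asparagine synthetase asns (-0.93, adjusted p = 0.0482, highest 0.139) and the serine synthesis enzyme psat1 (-0.68, adjusted p = 0.049, highest 0.149) were the others called. In several members that missed the threshold CTCF MO replicate 2 was near the Rad21 MO libraries: chac1, which degrades glutathione, had 55.9, 109 and 88.4 FPKM in Rad21 MO libraries, against 217, 220 and 90.1 in CTCF MO libraries (-0.99, adjusted p = 0.131), and the factor ddit3 had 1.55, 2.28 and 2.26 FPKM in Rad21 MO libraries, with 8.003, 4.79 and 2.72 in CTCF MO libraries (-0.94, adjusted p = 0.126). Without CTCF MO replicate 2, 5 members were called lower, and without any other single library 1 was.

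**Figure D4:**
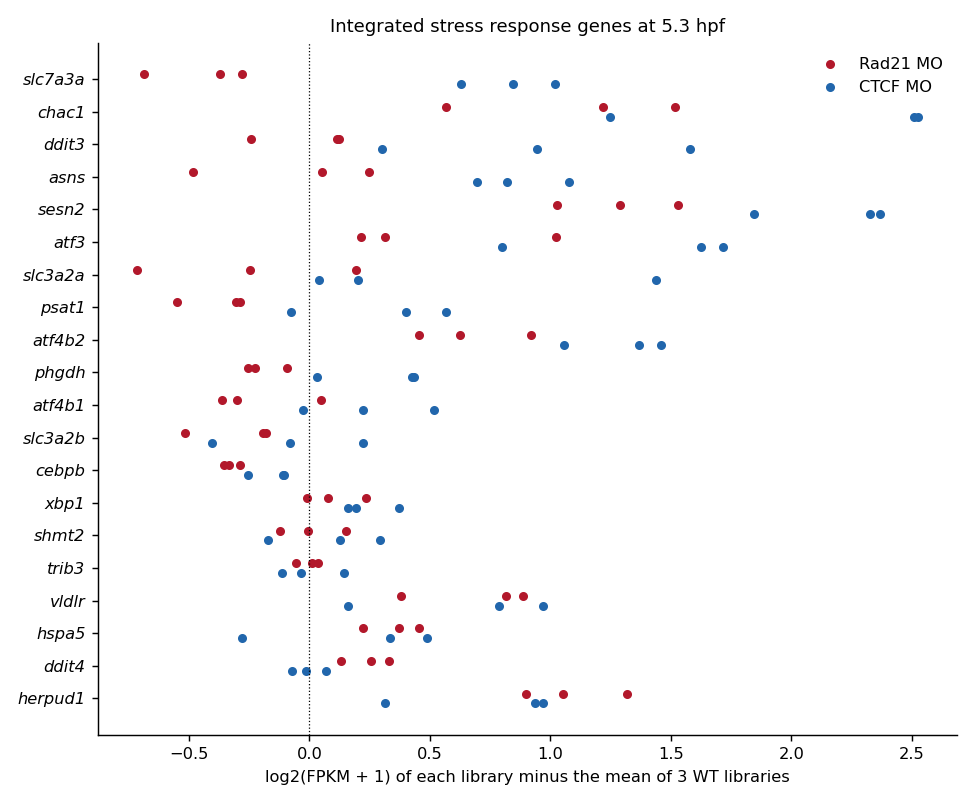
Level of 20 integrated stress response genes (rows) in each morpholino library at 5.3 hpf, as log2(FPKM + 1) minus the mean of the 3 WT libraries (horizontal axis). Rad21 MO points are red and CTCF MO points blue. CTCF MO points lie to the right of all Rad21 MO points for slc7a3a, sesn2, asns and psat1, the 4 genes called. They also do so for ddit3, which was not called. Libraries did not overlap in any of the 684 called genes or in 28.6% of all tested genes.

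Of 34 genes of p53 and its targets, 2 were lower in Rad21 MO embryos (5.88%, against 1.75% of all tested genes; 0 to 3 genes over the alternatives) and none higher: sesn2, which is on both lists, and tp53inp1 (-0.83, SE 0.187, adjusted p = 0.0428, highest 0.141). Of 32 genes on the chaperone list 1 was called in each direction (3.12% each, against 2.75% of all tested genes higher and 1.75% lower). The collagen chaperone hsp47, called lower above, is not on this list. The mitochondrial chaperonin hspe1 was lower, at 49.9, 47.4 and 56.0 FPKM in Rad21 MO libraries, 85.2, 100.2 and 86.0 in CTCF MO libraries and 41.4 ± 5.85 in WT (SD, n = 3; -0.81, SE 0.127, adjusted p = 0.0162, highest 0.0701). The heat shock factor hsf2 was higher (0.58, SE 0.12, adjusted p = 0.0348, highest 0.116).

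Histone genes were the other list with a low median. Of 51 tested core and linker histone genes, 4 were lower in Rad21 MO embryos (7.84%, against 1.75% of all tested genes) and none higher, 7 lay above 0, and the median was -0.274, with a range of -0.31 to -0.108. The locus HIST2H2AB (2 of 30), an H2A gene (chromosome 25, 36188532 to 36188919), stood at 714, 698 and 805 FPKM in Rad21 MO libraries, at 1799, 1407 and 1341 in CTCF MO libraries and at 1796 ± 276 in WT (SD, n = 3). CTCF MO embryos were near WT and Rad21 MO embryos below both (-1.03, SE 0.154, adjusted p = 0.0146, highest 0.068). The copies HIST2H2AB (5 of 30) and HIST2H2AB (7 of 30) differed by -0.97 and -0.84 and the variant histone h3f3c by -0.83 (adjusted p = 0.0205, 0.0466 and 0.0496). Histone copies are nearly identical and share reads, so the separate values are uncertain. The lower calls were 2 after rescaling to 1e+06 or median ratio scaling, 8 with all 45 libraries and 0 to 2 without single libraries. Over all tested genes the lower calls were 102 and 230 after these scalings, against 266. They were 749 of 18943 with all 45 libraries and 24 to 130 without single libraries.

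None of the 66 cytosolic ribosomal protein genes was called by limma, against 4.5% of all tested genes. At an unadjusted p under 0.05 there were 5 of them, against 3236 of all 15214 tested genes. Only 3 lay above 0 (95.5% below, against 51.9% of all tested genes), and the median was -0.187 (-0.252 to -0.0692). Of 79 ribosome biogenesis genes, utp3, ddx10 and ddx56 were lower (3.8% of the list, against 1.75% of all tested genes; -0.39 to -0.50, adjusted p = 0.0432 to 0.049) and none higher. Under rescaling to 1e+06 none of the 79 was called. Below 0 lay 59 of the 79 (74.7%, against 51.9% of all tested genes), and their median was -0.127 (-0.15 to -0.0353). Of 58 cell cycle genes 3 were higher (5.17%, against 2.75% of all tested genes) and 4 lower (6.9%, against 1.75%). Over the alternatives 0 to 5 of them were higher and 0 to 9 lower, with 2 and 1 after rescaling to 1e+06. Of the 58 genes 43 lay below 0 (74.1%, against 51.9% of all tested genes), and their median was -0.153 (-0.164 to -0.0584). The kinase cdk2 (0.43, adjusted p = 0.0284), the cyclin ccnb2 (0.43, adjusted p = 0.0326) and the licensing inhibitor gmnn (0.44, adjusted p = 0.0442) were higher. The checkpoint gene bub3 (-0.75, adjusted p = 0.0381), the mitotic kinase aurka (-0.65, adjusted p = 0.0411), the passenger complex gene cdca8 (-0.51, adjusted p = 0.0498) and the kinase inhibitor cdkn1ba (-1.28, adjusted p = 0.0292) were lower. Of these, gmnn, cdca8 and cdkn1ba lie outside the rule for named genes, so their values were known when they were picked. Without single libraries no gene of the list was called lower and at most 1 higher. Of 81 nuclear genes of oxidative phosphorylation, sdhdb was higher and sdha, of the same succinate dehydrogenase complex, and ATP5G2 were lower (0.54, -0.51 and -0.49; adjusted p = 0.0309, 0.0321 and 0.0364). These are 1.23% and 2.47% of the list, near the 2.75% and 1.75% of all tested genes.

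The WT level was set beside each call. Of the 418 genes higher in Rad21 MO embryos, the WT mean lay beyond CTCF MO in 194, between the groups but nearer CTCF MO in 120, between but nearer Rad21 MO in 73 and beyond Rad21 MO in 31. WT was thus nearer CTCF MO in 75.1% of them, against 59.3% of all tested genes with a higher mean in Rad21 MO. Of the 266 genes lower in Rad21 MO embryos the same counts were 68, 100, 59 and 39, and WT was nearer CTCF MO in 63.2%, against 61.1% of all tested genes with a lower mean. The shares describe means and were not tested.

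A position along WT development was read from 8345 genes that differ at least 2-fold between WT of 4.5 hpf (position 0) and WT of 10 hpf (position 1). Rad21 MO libraries lay at 0.0973, 0.124 and 0.0949, CTCF MO libraries at 0.1295, 0.136 and 0.179, and WT libraries at 0.148, 0.1605 and 0.0931. All 3 Rad21 MO libraries lay before all CTCF MO libraries, while WT spanned nearly both. The means were 0.105 ± 0.0163 in Rad21 MO, 0.148 ± 0.0269 in CTCF MO and 0.134 ± 0.0358 in WT (SD, n = 3 each). The difference of -0.0426 had an exact two-sided permutation p of 0.1, the smallest that 3 against 3 libraries can give. It was -0.0272 without CTCF MO replicate 2. The permutation p was 0.2 with a pseudocount of 5, and also without Rad21 MO replicate 0, Rad21 MO replicate 2 or CTCF MO replicate 2. This position moves with the maternal and zygotic results above, and its part in them was not tested.

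The contrast at the neighbouring stages uses libraries of its own. At 4.5 hpf 411 of 14902 tested genes were called (2.76%; 1.51% higher and 1.25% lower in Rad21 MO), and at 10 hpf 558 of 16485 (3.38%; 0.843% higher and 2.54% lower). The age label of 1 Rad21 MO library disagrees with its title (3.3 hpf for a title of 4.5 hpf), and that of another does the reverse, so the 4.5 hpf values may include a library of the earlier stage. Of the genes called higher at 5.3 hpf, 390 of 413 were also higher in Rad21 MO embryos at 4.5 hpf (94.4%), 90 of them called. Of those called lower, 243 of 253 were also lower (96%), 45 of them called, and none was called with the other sign. Among genes not called at 5.3 hpf the same sign held at 4.5 hpf for 64.3% of those higher and 75% of those lower. At 10 hpf the shares were 231 of 389 (59.4%) and 184 of 258 (71.3%), against 56.4% and 52.5% of the uncalled genes. Of the genes called higher at 5.3 hpf, 8 were called with the same sign at 10 hpf and 5 with the other sign, and of those called lower 25 and 0.

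Tested directly over all 45 libraries, the difference of the contrast between 5.3 and 4.5 hpf was called in 3 of 18943 genes (0.0158%; 1340 at an unadjusted p under 0.05), and 2 of these were among the 684. Between 5.3 and 10 hpf it was called in 1461 genes (7.71%), 314 of them among the 684, although these were picked by the contrast that enters the difference. The maternal class had a median of 0.281 at 4.5 hpf, 0.252 at 5.3 hpf and 0.0703 at 10 hpf. This class was chosen to have fallen in WT by 10 hpf, where 1007 of its genes were tested. Because log2(FPKM + 1) shrinks differences of low genes, its 10 hpf median does not measure how far the contrast changed. At 4.5, 5.3 and 10 hpf the zygotic class had -0.399, -0.205 and -0.0343 and the integrated stress response genes -0.215, -0.465 and 0.0349. Histone genes had -0.48, -0.274 and -0.56, and cytosolic ribosomal protein genes -0.398, -0.187 and -0.025. Over all tested genes the medians were -0.0434, -0.0152 and 0.00911. At 10 hpf the libraries differed in p53 targets within groups: mdm2 stood at 217, 322 and 271 FPKM in Rad21 MO, 91.7, 27.5 and 150 in CTCF MO and 119, 36.9 and 30.4 in WT libraries. The part of that spread in the stage differences was not tested.

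For pgp the difference was 1.56 at 4.5 hpf (adjusted p = 0.0191), 1.57 at 5.3 hpf and 0.06 at 10 hpf (adjusted p = 0.9). For slc7a3a it was -1.25 at 4.5 hpf (adjusted p = 0.0161), -1.28 at 5.3 hpf and -0.46 at 10 hpf (adjusted p = 0.413). The histone locus HIST2H2AB (2 of 30) was lower in Rad21 MO embryos at all 3 stages (-1.11, -1.03 and -1.06; adjusted p = 0.0161, 0.0146 and 0.029). Of the named genes, ctcf and tbx16 changed direction with a call at each end. At 10 hpf ctcf stood at 103, 87.6 and 97.1 FPKM in Rad21 MO libraries, against 167, 141 and 158 in CTCF MO libraries (-0.69, adjusted p = 0.0138), where WT libraries had 154.5, 143 and 154. For tbx16 the 10 hpf values were 13.9, 15.02 and 12.96 FPKM in Rad21 MO libraries, against 27.5, 28.1 and 31.4 in CTCF MO libraries (-1, adjusted p = 0.0064).

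**Figure D5:**
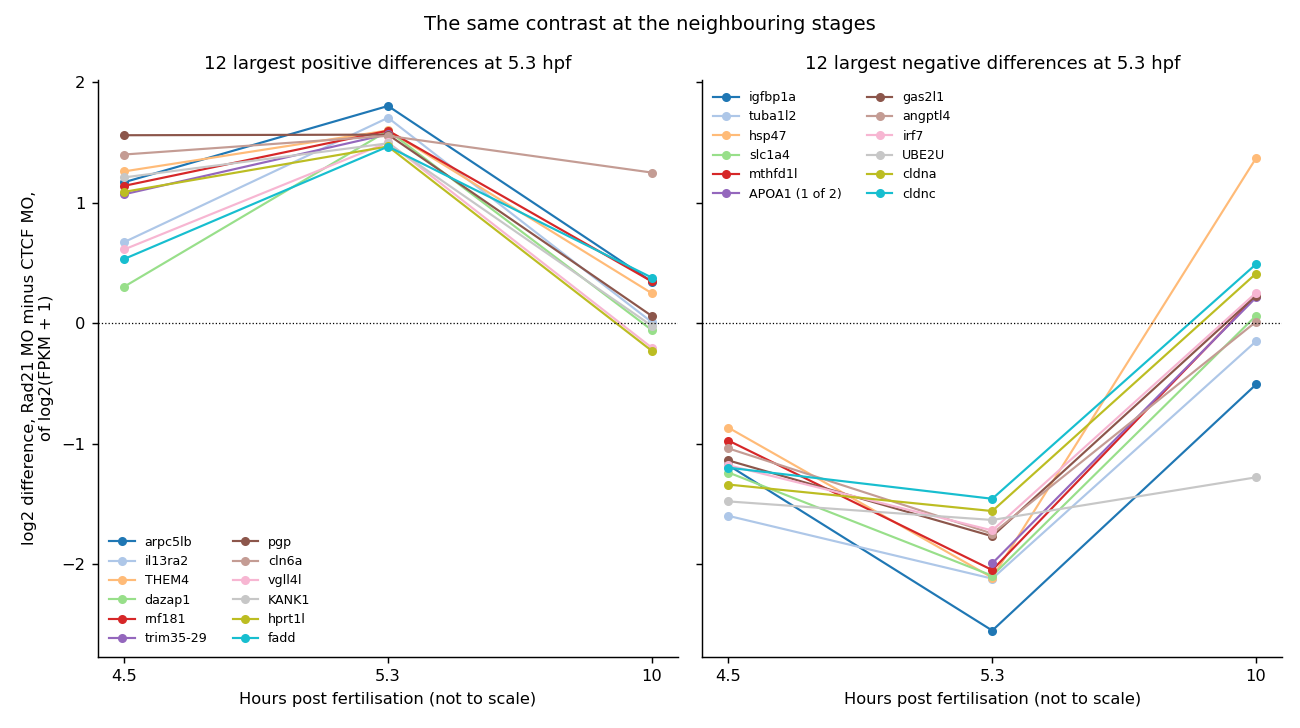
Log2 difference Rad21 MO minus CTCF MO (vertical axis) at 4.5, 5.3 and 10 hpf (horizontal axis, not to scale) of the 12 genes with the largest positive (left) and the 12 with the largest negative difference (right) at 5.3 hpf, among genes the naming rule admits. Lines join the values of a gene, and a missing point was not tested at that stage. At 4.5 hpf all values shown have the sign they have at 5.3 hpf, while at 10 hpf all but hsp47, cln6a and UBE2U lie between -0.51 and 0.49.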

How the data were processed

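Ribosomal RNA was depleted from total RNA of whole zebrafish embryos and strand-specific libraries were sequenced, per the labels' protocols. The deposited values, made by the authors, are FPKM for each gene in each library. The submitters' processing notes name TopHat2 2.0.9, Cufflinks 2.2.0, Cuffdiff and the genome Zv9 (danRer7), and coordinates are those of the deposited table, whose counting from 0 or 1 is not given in the sources used here. FPKM depends on annotated length and on what else a library holds. The share of FPKM in small non-coding RNAs was 19.7% to 24.2% in Rad21 MO, 19.6% to 25.2% in CTCF MO and 22.1% to 23.2% in WT libraries of 5.3 hpf. The depth in reads is unknown. A relative depth read from the spacing of low values spanned 1.97-fold and was shared by 22.8% to 29.7% of low genes, which does not recover whole reads for a count test. The table lists 31966 genes, 498 of them merged loci. The authors' own comparison tables were not used here.

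Groups were taken from the sample titles. The table's columns carry a group and a number from 0 to 2, here called the replicate. Values were tested as log2(FPKM + 1), which understates changes of low genes, with limma 3.58.1 in R 4.3.3 (two-sided, eBayes moderation with trend, p-values adjusted by Benjamini-Hochberg over all genes tested). The fit held the 9 libraries of 5.3 hpf, with WT sharing the estimate of the spread, and stage differences were fitted on all 45 libraries. The fitting code was tested on simulated data. Files were read in R by data.table, version 1.17.8, and in Python 3.11.15 by pandas 2.3.3, and plots were drawn with matplotlib 3.10.9.

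Named genes had an adjusted p under 0.05, libraries of the groups that did not overlap, at least 5 FPKM on average in the higher group and a unique gene symbol. The 12 largest differences in each direction were taken, and from each list the eligible genes of smallest adjusted p, no more than 4, with rad21a, rad21b, ctcf, pou5f1, nanog, sox19b and blf in any case. Other genes named in the text were chosen after their values were seen. The maternal and zygotic classes need at least 5 FPKM in the higher WT group. The contrast, the lists and the rules were chosen with earlier results of these data known, and no list was given a test of its own. Alternatives were other scalings, pseudocounts of 0.1 and 5, other filters, other sets of libraries and leaving out each morpholino library. Removal of small RNAs before rescaling was added after the data were seen.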

Additional observations from a re-analysis of the deposited data

Results flagged for a closer look

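For 38 named genes the difference between Rad21 MO and CTCF MO embryos at 5.3 hpf was itself different from that at 10 hpf, by limma over all 45 libraries (adjusted p of 3e-06 to 0.0468). None was so for 4.5 hpf. The genes were named by the 5.3 hpf contrast, which is a term of this difference, so their number is no measure of how far the stages differ. Values are the log2 difference at 5.3 hpf minus that at 10 hpf.

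Genes more positive at 5.3 hpf, in the sense of Rad21 MO over CTCF MO, were mt2 (1.96), il13ra2 (1.70), hprt1l (1.70), vgll4l (1.70), dazap1 (1.66), KANK1 (1.52), pgp (1.51), tbx16 (1.48), arpc5lb (1.46), THEM4 (1.35) and rnf181 (1.25). Smaller values were found for ctcf (1.16), gdf9 (1.09), buc (1.08), tdrd6 (0.991), pabpn1l (0.911), cdk2 (0.834), ccnb2 (0.696), sox19b (0.681), hsf2 (0.677), sdhdb (0.62) and tbp (0.527). Of these, sox19b was not called at 5.3 hpf. Several were low at 10 hpf, where log2(FPKM + 1) holds a difference near 0. Means in Rad21 MO and CTCF MO were 0.794 and 0.788 FPKM for il13ra2, 1.16 and 1.15 for buc and 0.932 and 1.01 for tdrd6. The gene gdf9 was too low for the test at 10 hpf alone. For such genes the value mostly repeats the 5.3 hpf difference. Others were not low, such as pgp (39.4 and 38.2 FPKM) and KANK1 (31.1 and 31.8).

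Genes more negative at 5.3 hpf were hsp47 (-3.49), tp53inp1 (-2.62), mthfd1l (-2.27), APOA1 (1 of 2) (-2.21), slc1a4 (-2.16), gas2l1 (-2), tuba1l2 (-1.97), irf7 (-1.97), cldna (-1.97), cldnc (-1.95) and angptl4 (-1.76). Then came sesn2 (-1.43), admp (-1.36), psat1 (-0.966), pnrc2 (-0.809) and aurka (-0.655). For tp53inp1 the 10 hpf values were 33.6, 40.2 and 35.1 FPKM in Rad21 MO, 11.4, 4.95 and 15.7 in CTCF MO and 17.2, 5.23 and 4.96 in WT libraries, so CTCF MO and WT libraries differed widely within their groups at that stage. For hsp47 they were 401, 295.5 and 424 FPKM in Rad21 MO, 230, 119 and 104 in CTCF MO and 434, 151 and 127 in WT libraries.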

How the results depend on the processing

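No paired analysis was possible because the table's columns do not carry the replicate letters of the titles, so a replicate block was not run. Leaving out single libraries gave 62 to 314 calls between Rad21 MO and CTCF MO embryos, 36 to 184 higher and 24 to 130 lower, and a difference in position of -0.052 to -0.0272. Lower calls were 102 after rescaling to 1e+06 and 154 after removal of small RNAs, against 266. Without a filter 340 genes were called (213 higher, 127 lower), and with all 45 libraries 1762 (1013 and 749). The difference from 4.5 hpf was called in 1 gene with a pseudocount of 0.1 and 5 without a filter, and that from 10 hpf in 947 after rescaling and 931 with a pseudocount of 0.1. The causes were not tested. Of the 684 calls, 456 were shared after rescaling and 622 with all 45 libraries.

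Differences that changed sign were all near 0 and uncalled. For rad21a they were 0.049 after rescaling, 0.024 after quantile normalization and 0.039 after removal of small RNAs. For pou5f1 they were 0.078, 0.059 and 0.067 under the same settings, and -0.058 to 0.025 without single libraries (0.0039 without Rad21 MO replicate 2). For nanog they were 0.092, 0.086 and 0.082, with 0.013 under median ratio scaling and -0.065 to 0.0503 without single libraries. Of 26 list and class medians 13 kept their sign in every setting, 11 below and 2 above 0. FPKM without read totals gives no counting error, so low genes are limited in a way these data do not measure.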

Other observations

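Calls were spread over all 25 chromosomes. Of tested genes, 2.16% were called on chromosome 4 (21 of 970) and 6.1% on chromosome 13 (36 of 590), the lowest and highest shares, against 4.5% over all. The direction varied as well, with 21 higher and 5 lower in Rad21 MO embryos on chromosome 18 and 16 higher and 20 lower on chromosome 7. These shares were not tested.

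Among genes short of the threshold, 2 examples had opposite directions: klf2a, a Kruppel-like factor, stood at 42.5, 33.0 and 38.6 FPKM in Rad21 MO libraries, against 24.1, 24.6 and 18.9 in CTCF MO libraries (log2 difference 0.73, adjusted p = 0.0533), and the epidermal factor grhl1 at 45.5, 34.8 and 32.1 FPKM in Rad21 MO libraries, with 54.1, 49.6 and 62.4 in CTCF MO libraries (-0.56, adjusted p = 0.0607). Both were chosen after their values were seen.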
